A study of Rattus norvegicus with 6 samples.

Results

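Genes that make fatty acids and build them into sphingolipids were followed in the lumbar spinal cord of rats after intrathecal lidocaine. They were taken by name, as 36 enzymes, regulators and carriers of the pathway, and each was read from the brightest array row that named that gene alone. Such a row existed for 31 of the 36, out of 20530 genes read in the same way. The other 5, Hacd2, Tecr, Sptlc1, Sptlc2 and Fabp7, were not analysed here. Sprague-Dawley rats in the lidocaine group (n = 3) received 20 µL of a 10% solution of this sodium channel blocker into the space around the cord. The control group (n = 3) was left untreated, with no sham injection, so the drug and the injection cannot be told apart. Segments L2 to L6 were collected on day 4 and hybridised 1 rat to an array, and neither the age nor the sex of the animals was given in the labels.

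Fatty acid synthesis starts in the cytosol, where acetyl-CoA is carboxylated to malonyl-CoA and joined by fatty acid synthase into palmitate. Palmitate is then lengthened and desaturated at the endoplasmic reticulum, activated to its CoA ester, and used for phospholipids or joined to serine to start a sphingolipid. In the cord much of this output goes into myelin, whose membrane is rich in cholesterol, very long chain fatty acids and galactosylceramide. Oligodendrocytes make that membrane in the cord and Schwann cells make it in the nerve roots, while astrocytes supply lipid to neurons. The transcription factor SREBP-1, the product of Srebf1, drives many genes of the early steps.

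Values are deposited log2 summaries, and a difference is the lidocaine mean minus the control mean on the log2 scale. A gene is said to have risen or fallen where limma's moderated test gave an adjusted p under 0.05 over all 20530 genes. Arrays correlated at 0.994 to 0.996 within groups and at 0.987 to 0.992 between groups. The 95th percentile of the negative control rows, a guide to background, was 5.79 to 5.87 in control rats and 5.99 to 6.06 in lidocaine rats. Of the 31 genes, 24 lay above it on every array, and Acacb, Srebf1, Thrsp, Elovl4, Hacd1, Cers6 and Acsl5 did not. Since whole tissue was assayed, fewer cells of a type and less RNA per cell cannot be told apart.

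Lipid synthesis genes were mostly lower after lidocaine. Of the 31 measured genes 18 fell, 2 rose and 11 did not pass, so that 58.1% fell, against 14% of all genes that fell and 9.7% that rose (limma, adjusted p under 0.05, n = 3 rats per group). The median difference was -0.32 over these genes and -0.0095 over all genes. The groups did not overlap, with lidocaine lower, for 22 of the 31, against 24.6% of all genes, and lidocaine was higher without overlap for 2, against 15.9%. In either direction 40.5% of all genes did not overlap. Bright genes fell more often than dim ones: among the 4996 genes with a mean above 5.93, 37.1% fell and 14.1% rose, and 17 of the 25 lipid synthesis genes in that range fell. Without control rat 2 the number that fell dropped from 18 to 11, and without other single rats it was 12 to 17. Rises made up 40.9% of the calls over all genes and 30.1% after each array was centred on its median.

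**Figure D1:**
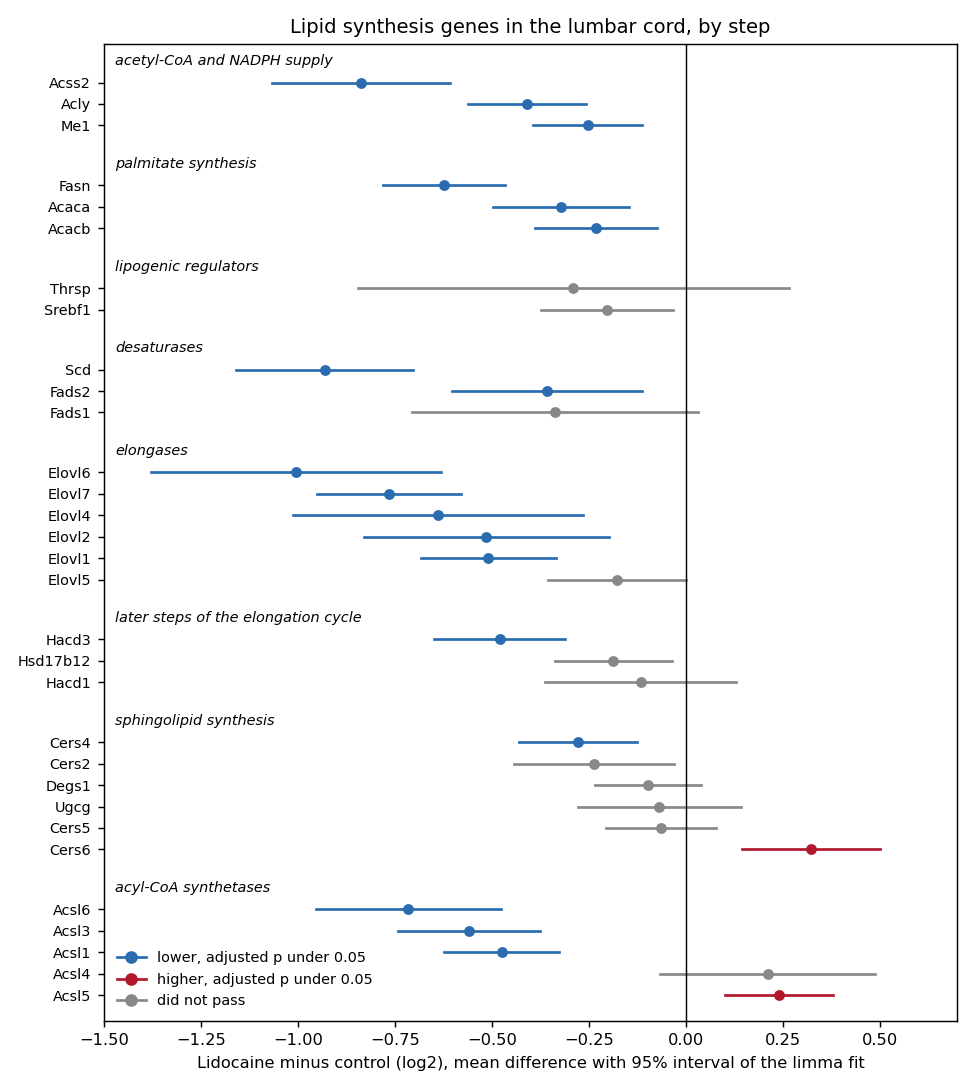
Difference between lidocaine and control means (log2, horizontal axis) for the 31 measured genes, grouped by step of synthesis, with the 95% interval of the limma fit. Blue marks the 18 genes that fell, red the 2 that rose and grey the 11 that did not pass. With the 2 lipogenic regulators counted in, the 20 genes of the steps that build, desaturate and elongate the chain all lie to the left of 0.

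The falls were spread over the steps that supply, build, desaturate and elongate the chain. With the 2 lipogenic regulators counted in, 14 of 20 measured genes fell there, 6 did not pass and all 20 differences were negative. In sphingolipid synthesis 1 of 6 measured genes fell, 1 rose and 4 did not pass, and the 16.7% that fell was near the 14% of all genes. Of these 6 differences 5 were negative, against 10725 of 20530 over all genes. Lidocaine was lower without overlap for 3 of the 6, against 24.6% of all genes. Of the 5 long-chain acyl-CoA synthetases 3 fell and 1 rose. Whether these steps differ from each other was not tested.

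All 3 genes that supply acetyl-CoA and reducing power fell. Acss2, which makes acetyl-CoA from acetate, read 7.70, 7.67 and 7.65 in the control rats and 7.07, 6.71 and 6.74 in the lidocaine rats. The controls were tightly grouped and every lidocaine rat lay well below them, a 1.79-fold lower level (difference -0.84 ± 0.099, SE, adjusted p = 0.00158). Acly, which splits citrate into acetyl-CoA, read 8.02, 8.02 and 8.06 in controls and 7.70, 7.65 and 7.53 after lidocaine. It was 1.33-fold lower, again with no overlap (difference -0.41 ± 0.066, SE, adjusted p = 0.00523). Me1, the cytosolic malic enzyme that yields NADPH, moved less, from 8.30, 8.24 and 8.23 to 8.04, 8.03 and 7.94 (difference -0.25, adjusted p = 0.0206). That call did not hold (adjusted p 0.0553 to 0.0636) when leaving out any 1 control rat or lidocaine rat 3. Nor did it hold with the replicate number as a block (adjusted p = 0.057).

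The proximal promoters of 3 genes that fell, Acss2, Acly and Acsl3, are shown because each holds the letters CCAAT, the core of the site bound by NF-Y, a usual partner of SREBP, at nearly the same distance from the start of transcription. The sequences are RefSeq's for the assembly GRCr8, 250 bases before the start and 50 after it, read in the direction of the gene, with CCAAT or its reverse complement ATTGG in capitals. Acss2 is at chr3:164464453-164464752 on the plus strand, Acly at chr10:85963582-85963881 on the minus strand and Acsl3 at chr9:87563351-87563650 on the plus strand.
Acss2: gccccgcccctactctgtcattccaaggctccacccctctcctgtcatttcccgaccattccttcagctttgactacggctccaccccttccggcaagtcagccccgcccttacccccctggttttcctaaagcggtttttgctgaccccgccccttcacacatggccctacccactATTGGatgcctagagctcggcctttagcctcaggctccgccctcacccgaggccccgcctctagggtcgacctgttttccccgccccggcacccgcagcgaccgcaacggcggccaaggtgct
Acly: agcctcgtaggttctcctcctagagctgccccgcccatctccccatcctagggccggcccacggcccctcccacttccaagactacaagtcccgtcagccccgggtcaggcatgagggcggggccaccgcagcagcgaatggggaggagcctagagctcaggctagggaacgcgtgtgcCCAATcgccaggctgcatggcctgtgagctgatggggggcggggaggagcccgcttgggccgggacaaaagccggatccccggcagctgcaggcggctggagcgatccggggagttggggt
Acsl3: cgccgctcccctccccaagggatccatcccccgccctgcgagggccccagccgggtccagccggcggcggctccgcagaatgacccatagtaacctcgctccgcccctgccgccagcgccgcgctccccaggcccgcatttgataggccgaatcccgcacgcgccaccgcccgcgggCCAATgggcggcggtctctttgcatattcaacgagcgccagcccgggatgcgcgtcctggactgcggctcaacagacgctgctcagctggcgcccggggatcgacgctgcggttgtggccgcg
The box began 73 bases before the start in Acss2, on the opposite strand, 71 bases before it in Acly and 73 in Acsl3, both on the strand of the gene. The RefSeq table gave at least 1 promoter window for 32 of the 36 genes and none for Fasn, Acaca, Elovl6 and Ugcg, so the counts do not cover those 4. Of these 32 genes 17 had CCAAT on either strand in at least 1 window, and 37.5% of 33469 rat promoter windows of this length held it. Some genes have more than 1 window, which gives a gene more room for a match. The counts of genes and the shares of windows are therefore not like for like. Among the 15 of these genes that fell, 7 had it. The GC box, searched on both strands as GGGCGG, was in a window of 24 of the 32 genes, 10 of which fell, and in 33.1% of all windows. A CCAAT that began 60 to 90 bases before the start was found in 8 of the 32 genes, among them Acacb, Cers6 and Elovl5, and in 7.24% of all windows. A looser form of the sterol regulatory element, TCACNCCAC on either strand, was in no window of the 32 genes and in 1.12% of all windows. The palindromic E-box CACGTG was in a window of 3 of the 32 genes, 1 of which fell, and in 6.42% of all windows. The motifs and the 3 sequences were chosen after the values of the genes were known, and a match shows only that the letters are there.

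Palmitate synthesis fell at all 3 of its measured genes. Fasn, fatty acid synthase, read 8.09, 8.21 and 8.23 in control rats and 7.63, 7.51 and 7.53 in lidocaine rats. The groups were far apart relative to their spread (8.18 ± 0.073 and 7.55 ± 0.063, SD, n = 3), a 1.54-fold lower level after lidocaine (adjusted p = 0.00107). Acaca, the cytosolic acetyl-CoA carboxylase that feeds it with malonyl-CoA, went from 7.20, 7.33 and 7.28 to 7.08, 6.90 and 6.88. Its groups did not overlap, and it was 1.25-fold lower (adjusted p = 0.0195), a call that ended (adjusted p 0.0530 to 0.0721) when leaving out control rat 2 or 3 or lidocaine rat 2 or 3. The call also ended with the replicate number as a block (adjusted p = 0.0505). Acacb, the mitochondrial carboxylase whose malonyl-CoA holds back fatty acid oxidation, was dim, at 4.31, 4.18 and 4.25 in controls and 3.95, 4.08 and 4.02 after lidocaine. Its call (difference -0.23, adjusted p = 0.0429) ended (adjusted p 0.0547 to 0.127) with any 1 of the 6 rats left out. The same was so with trend and robust fits (0.0501) and with the replicate number as a block (0.111).

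The regulators of lipogenesis in this set did not pass. Srebf1 read 5.66, 5.87 and 5.68 in controls and 5.51, 5.56 and 5.53 in lidocaine rats, without overlap but with an adjusted p of 0.0859 (difference -0.20, 95% interval -0.37 to -0.033), and with arrays centred on their median it passed (adjusted p = 0.0319). Thrsp, the thyroid hormone responsive gene linked to lipogenesis in liver and fat, scattered from 4.61 to 5.58 in controls and from 4.54 to 5.06 after lidocaine. Its difference of -0.29 had a 95% interval of -0.85 to 0.27, and it was -0.070 without control rat 1, -0.56 without control rat 2 and -0.13 without lidocaine rat 3 (adjusted p 0.0865 to 0.847).

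**Figure D2:**
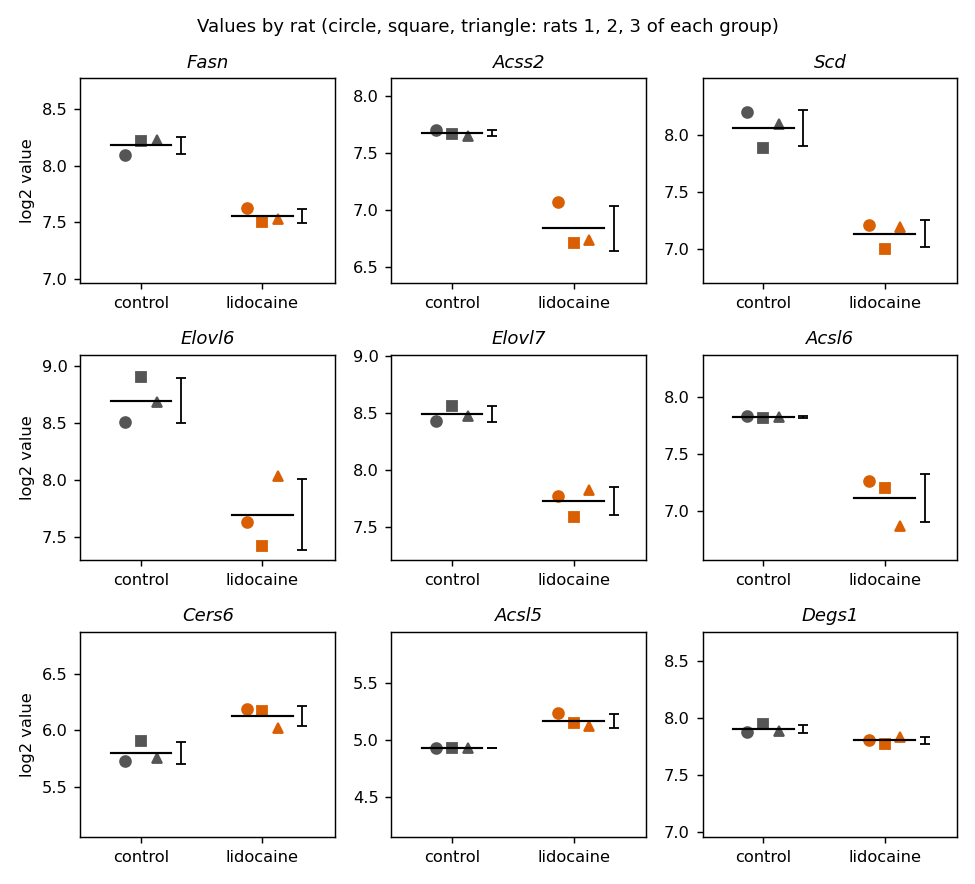
Log2 values (vertical axes, each spanning the same range) of 9 genes in the 3 control and 3 lidocaine rats. Symbols mark rats 1, 2 and 3 of each group, horizontal lines the means and bars the SD; lidocaine lies below control without overlap in Fasn, Acss2, Scd, Elovl6, Elovl7 and Acsl6, above it in Cers6 and Acsl5, and only slightly below in Degs1.

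Among the desaturases Scd fell most. Scd, the stearoyl-CoA desaturase that makes oleate, read 8.20, 7.89 and 8.10 in controls and 7.21, 7.0 and 7.19 after lidocaine. This 1.91-fold lower level was the 22nd lowest difference among all 20530 genes (difference -0.93 ± 0.099, SE, adjusted p = 0.000959). Scd2, the other stearoyl-CoA desaturase measured and named here after its value was seen, went from 11.03, 11.11 and 11.05 to 10.72, 10.81 and 10.91. It was 1.19-fold lower (adjusted p = 0.0345), a call that ended (adjusted p 0.0636 to 0.109) with any 1 rat other than lidocaine rat 3 left out. The call of Scd2 also ended with the replicate number as a block (adjusted p = 0.071). Fads2 and Fads1, the desaturases of polyunsaturated fatty acids, moved less evenly. Fads2 read 7.81, 8.01 and 7.85 in controls and 7.36, 7.5 and 7.74 after lidocaine (difference -0.36, adjusted p = 0.0442), a call that ended (adjusted p 0.0655 to 0.147) with any 1 rat other than lidocaine rat 3 left out, and also with quantile normalization (0.112). Fads1 read 8.27, 8.67 and 8.49 in controls and 8.01, 7.93 and 8.49 after lidocaine. Lidocaine rat 3 lay inside the control range, and the difference of -0.34 did not pass (adjusted p = 0.175, 95% interval -0.71 to 0.030) but did without that rat (difference -0.51, adjusted p = 0.0244) and with array weights (0.0426).

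Of the 6 elongases 5 fell, and the lowest difference of all 31 genes was among them. Elovl6, which lengthens palmitate to stearate, read 8.51, 8.90 and 8.68 in controls and 7.63, 7.42 and 8.03 in lidocaine rats. Even lidocaine rat 3, the highest of its group, was below every control, and the mean was 2.01-fold lower (difference -1.0 ± 0.16, SE, adjusted p = 0.0052), the 10th lowest difference of all genes. A dimmer array row for Elovl6 gave 7.35, 7.65 and 7.51 against 6.59, 6.44 and 6.94, with the same order of rats (difference -0.845). Elovl7, which lengthens saturated very long chains, went from 8.43, 8.57 and 8.48 to 7.77, 7.59 and 7.82. It was 1.7-fold lower (difference -0.76, adjusted p = 0.000933, the smallest of the 31). Elovl1, another elongase of saturated very long chains such as those of myelin sphingolipids, read 9.28, 9.06 and 9.10 in controls and 8.63, 8.59 and 8.69 after lidocaine. The 3 lidocaine rats were close together and all below the controls (1.42-fold lower, adjusted p = 0.00382).

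The other 3 elongases act on polyunsaturated or the longest chains. Elovl2, which extends the precursors of docosahexaenoic acid, read 7.07, 6.88 and 6.85 in controls and 6.48, 6.66 and 6.12 after lidocaine (difference -0.51, adjusted p = 0.0301). That call did not hold (adjusted p 0.0524 to 0.0882) when leaving out any 1 control rat or lidocaine rat 1, and also with quantile normalization (0.061). Elovl4, which makes the longest chains in retina, skin and brain, went from 6.24, 6.40 and 6.10 to 5.86, 5.74 and 5.23 (difference -0.64, adjusted p = 0.0249). It was no longer past the threshold (adjusted p 0.0619 to 0.0946) when leaving out control rat 1 or 2, and lidocaine rat 3 was its lowest value. Elovl5 read 9.26, 9.17 and 9.20 against 9.17, 8.97 and 8.95, with touching groups, and did not pass (difference -0.18, adjusted p = 0.143), though it did without lidocaine rat 1 (adjusted p = 0.0479).

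Each round of elongation ends with a reduction, a dehydration and a second reduction. Hacd3, one of the dehydratases, fell from 9.24, 9.38 and 9.21 to 8.81, 8.86 and 8.72, 1.39-fold lower with no overlap (adjusted p = 0.00418). Hsd17b12, the ketoacyl-CoA reductase of the cycle, read 7.78, 7.75 and 7.66 against 7.55, 7.59 and 7.48. Its groups did not overlap either, but the difference of -0.19 did not pass (adjusted p = 0.0765), except with arrays centred on their median or dim genes left out (adjusted p = 0.0217 and 0.0406). Hacd1, a dehydratase best known from muscle, was dim, between 3.75 and 4.21 on all arrays, and its difference of -0.12 had a 95% interval of -0.36 to 0.13.

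Among the 6 sphingolipid synthesis genes the differences ran from -0.28 to 0.32. The ceramide synthases attach a fatty acid to the sphingoid base, and each prefers certain chain lengths. Cers2, the synthase of very long chain ceramides in oligodendrocytes, read 7.79, 7.90 and 7.84 in controls and 7.62, 7.44 and 7.76 after lidocaine. The groups came within a small distance of each other in lidocaine rat 3, and the difference of -0.24 did not pass (adjusted p = 0.0977) but did without that rat (adjusted p = 0.0397) and with array weights (0.0353). Cers4 fell from 6.74, 6.70 and 6.71 to 6.50, 6.47 and 6.35 (difference -0.28, adjusted p = 0.0196), no longer past the threshold (adjusted p 0.0551 to 0.0667) when leaving out any 1 control rat and also with quantile normalization (0.0633). Cers6, which makes ceramides with palmitate, rose from 5.74, 5.91 and 5.76 to 6.19, 6.17 and 6.02.

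This 1.25-fold rise of Cers6 (difference 0.32 ± 0.077, SE, adjusted p = 0.0201) did not hold (adjusted p 0.0581 to 0.0780) when leaving out control rat 1 or 3 or lidocaine rat 1 or 2. Its values lay near the 95th percentile of the negative controls, which itself was higher on the lidocaine arrays, and the part of this in the result was not tested. Cers5, a synthase with the same preference for palmitate, read 6.36, 6.36 and 6.25 against 6.25, 6.25 and 6.27 (difference -0.063, 95% interval -0.20 to 0.079). Degs1, the desaturase that completes ceramide, read 7.88, 7.95 and 7.89 in controls and 7.81, 7.77 and 7.84 after lidocaine. Although these groups did not overlap, the difference of -0.098 did not pass (adjusted p = 0.29), and its 95% interval of -0.23 to 0.038 leaves out falls as large as those of Fasn or Scd. Ugcg, which adds glucose to ceramide, read 7.01, 7.12 and 7.05 against 7.04, 7.13 and 6.81, with overlapping groups (difference -0.068, 95% interval -0.28 to 0.14). With quantile normalization, the differences of Cers5 and Ugcg had the opposite sign (0.017 and 0.019), and so had that of Ugcg without lidocaine rat 3 (0.023).

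The long-chain acyl-CoA synthetases, which activate fatty acids for all later use, split by member. Acsl6, the synthetase of brain that favours docosahexaenoic acid, read 7.84, 7.82 and 7.83 in controls and 7.26, 7.20 and 6.87 after lidocaine. The controls were almost identical and all lidocaine rats lay below them, 1.64-fold lower on average (difference -0.72 ± 0.10, SE, adjusted p = 0.00349). Acsl3, found on lipid droplets and the endoplasmic reticulum, went from 7.61, 7.56 and 7.58 to 7.12, 7.09 and 6.87, 1.47-fold lower (adjusted p = 0.00322). Acsl1, also a gene of fatty acid oxidation in other tissues, went from 6.89, 6.90 and 6.96 to 6.52, 6.40 and 6.41, 1.39-fold lower (adjusted p = 0.00265). Both were lower in every lidocaine rat than in every control.

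The other 2 synthetases went the other way or did not pass. Acsl5 rose from 4.93, 4.93 and 4.93 to 5.24, 5.15 and 5.13 (1.18-fold, difference 0.24, adjusted p = 0.0241), but it was dim, below the 95th percentile of the negative controls on every array. Its call ended (adjusted p 0.0512 to 0.0841) with any 1 rat other than lidocaine rat 3 left out. The same was so with arrays centred on their median (adjusted p = 0.0531) and with the replicate number as a block (0.0707). Acsl4, which prefers arachidonic acid and is known for its part in ferroptosis, read 6.17, 6.37 and 6.25 in controls and 6.56, 6.66 and 6.21 after lidocaine. Lidocaine rat 3 lay within the control range while rats 1 and 2 lay above it, and the difference of 0.21 did not pass (adjusted p = 0.261) but did without rat 3 (difference 0.34, adjusted p = 0.0285).

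The 3 lidocaine rats did not share 1 order over these genes. Lidocaine rat 3 had the lowest of the 3 values for 17 of the 31 genes, rat 2 for 11 and rat 1 for 3. The median distance from the control mean was -0.30 in rat 1, -0.37 in rat 2 and -0.37 in rat 3. All 18 genes that fell were below every control in each of the 3 rats. They were picked as lower on these same arrays, so this adds no separate evidence. The median SD among lidocaine rats was 0.12 for these genes and 0.093 for all genes, and among controls 0.069 and 0.083. With 3 rats against 3 the smallest two-sided p of an exact permutation test is 0.1, so no gene could pass on that test alone.

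Markers of several cell types moved with the groups, and their part in the falls was not tested. Over all genes 14% fell and 9.7% rose, and among genes with a mean above 5.93 the shares were 37.1% and 14.1%. Oligodendrocyte markers were lower, 6 of 10 measured ones falling and 4 not passing, and their summed linear level was 4405 to 4835 in controls and 3120 to 3600 after lidocaine. Ugt8, a galactolipid gene of myelin, is among these markers and among those that fell, so this list is not separate from the lipid genes. Neuron markers fell in 9 of 11 cases with 2 not passing (sums 7850 to 8194 and 5315 to 6678), and astrocyte markers in 5 of 7 with 2 not passing (2849 to 3024 and 1938 to 2474). Microglia and macrophage markers rose in 11 of 12 cases with 1 not passing, from 611 to 665 in controls to 1816 to 2179. Of 7 Schwann cell and root myelin markers 1 rose and 6 did not pass, and their sums of 2866 to 3773 in controls and 2704 to 3649 after lidocaine overlapped. None of these lists had a marker below the median of the negative controls on every array. Of 10 adipocyte markers 1 rose and 9 did not pass, and the sums overlapped at 163 to 188 and 173 to 199. The share that rose was 14.3% of the Schwann cell and root myelin markers and 10% of the adipocyte markers, against 9.7% of all genes. Among the adipocyte markers Adipoq, Lep, Fabp4 and Cidec lay below the negative control median on every array. Plin1, Cidea, Lipe, Car3, Retn and Cfd, the marker that rose, did not. Of 8 meningeal fibroblast markers 1 rose, 2 fell and 5 did not pass, with sums of 2166 to 2580 and 2141 to 2936.

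**Figure D3:**
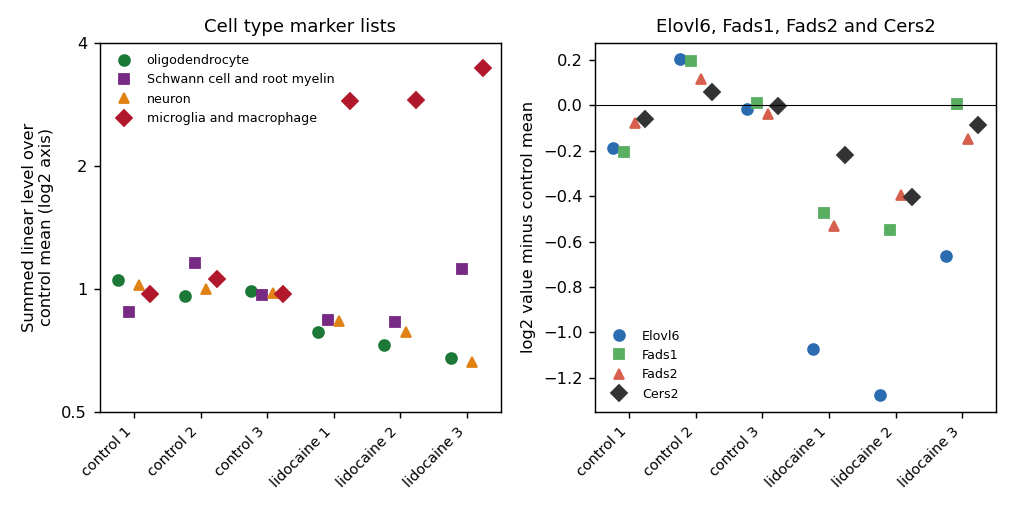
Left, summed linear level of 4 marker lists on each array, relative to the control mean (log axis); right, log2 values of Elovl6, Fads1, Fads2 and Cers2 minus their control means on the same arrays. Oligodendrocyte and neuron markers are lower and microglia and macrophage markers higher in all 3 lidocaine rats, while the Schwann cell and root myelin sum is highest in control rat 2 and lidocaine rat 3, where Elovl6, Fads1, Fads2 and Cers2 are also the highest of their group. Only 7 of the 31 lipid synthesis genes, these 4 among them, have that order (22.6%, against 14.1% of all genes).

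Other genes of fatty acid synthesis fell alongside. Of 20 further synthesis genes 12 fell and 8 did not pass, which is 60%, against the 14% of all genes. In the fit without dim genes, 6 of the 9 that remained fell, against 37.1% of all genes in that fit. Aacs, which makes acetoacetyl-CoA for lipid synthesis, read 6.71, 6.8 and 6.74 in controls and 6.15, 5.95 and 5.89 after lidocaine, 1.68-fold lower (adjusted p = 0.00102). The mitochondrial malic enzyme Me3 was 1.58-fold lower (adjusted p = 0.00482) and the acyl-CoA synthetase Acsf2 1.27-fold lower (adjusted p = 0.00967). Both galactolipid genes of myelin that were measured fell. Ugt8, which makes galactosylceramide, read 10.32, 10.21 and 10.18 against 9.52, 9.54 and 9.57, 1.62-fold lower (adjusted p = 0.000563). Gal3st1, which sulfates it, was 1.29-fold lower (adjusted p = 0.0165), no longer past the threshold (adjusted p 0.0510 to 0.0662) when leaving out control rat 3 or lidocaine rat 2.

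The regulators upstream of the pathway moved in both directions. Of 17 measured regulators 6 fell, 3 rose and 8 did not pass, so that 35.3% fell, against 14% of all genes, and 17.6% rose, against 9.7%. In the fit without dim genes, 5 of the 8 that remained fell and 0 rose, against 37.1% and 14.1% of all genes in that fit. Insig1, an SREBP target that holds the SREBP complex in the endoplasmic reticulum, read 7.32, 7.44 and 7.47 in controls and 6.91, 6.77 and 6.57 after lidocaine, 1.57-fold lower (adjusted p = 0.00361). Ppargc1a, a coactivator of mitochondrial genes, was 1.56-fold lower (adjusted p = 0.00148), and Srebf2, the SREBP of cholesterol synthesis and named after its value was seen, was 1.31-fold lower (adjusted p = 0.0113). The 3 that rose were Nr1h3, which encodes the oxysterol receptor LXR-alpha, Mlxipl, which encodes the glucose-responsive factor ChREBP, and Rxra, the partner receptor of LXR. Nr1h3 read 5.18, 5.23 and 5.09 in controls and 5.53, 5.51 and 5.73 after lidocaine, 1.34-fold higher (adjusted p = 0.00974), and Mlxipl was 1.3-fold higher (adjusted p = 0.00975). Rxra, named after its value was seen, was 1.17-fold higher (adjusted p = 0.0377). Its call ended (adjusted p 0.0607 to 0.124) with any 1 rat other than lidocaine rat 3 left out. The same was so with arrays centred on their median (0.0705) and with the replicate number as a block (0.0896). All 3 lay below the 95th percentile of the negative controls on every array.

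**Figure D4:**
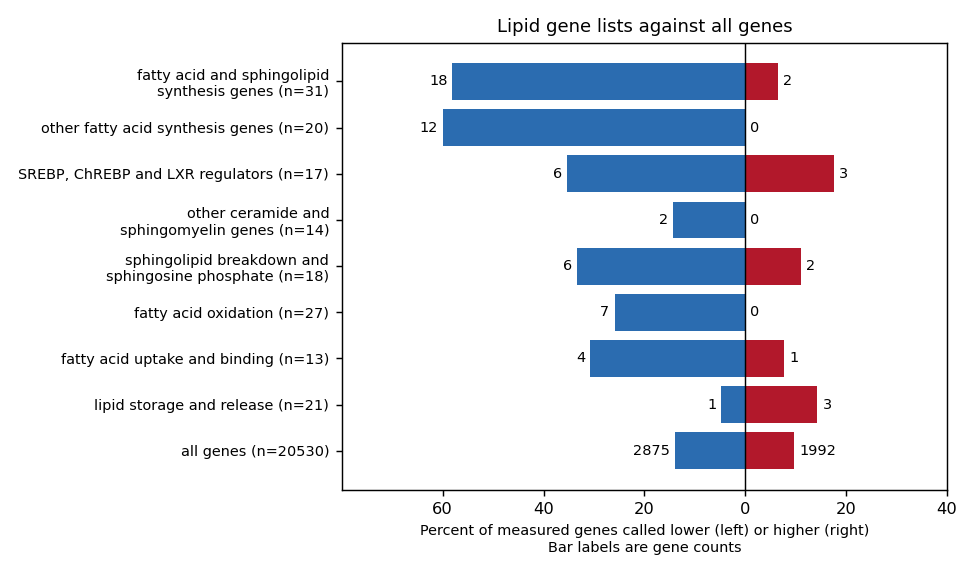
Percent of measured genes called lower (blue, left) or higher (red, right) after lidocaine in 8 lipid gene lists and in all 20530 genes, with the number of genes at the end of each bar. The 31 synthesis genes (18 lower, 2 higher) and the 20 other fatty acid synthesis genes (12 lower) have the longest bars to the left, and lipid storage and release (1 lower, 3 higher) the shortest.

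Uptake and storage genes included the largest rises among the lipid lists. Cd36, a fatty acid and lipoprotein receptor of macrophages, read 3.21, 3.95 and 3.75 in controls and 4.99, 5.12 and 4.98 after lidocaine, 2.63-fold higher (adjusted p = 0.00183), below the 95th percentile of the negative controls on every array. The other called uptake genes fell, 4 of 13 (30.8%, against 14% of all genes), while 8 did not pass. With dim genes left out of the fit, 1 of the 6 uptake genes that remained fell, against 37.1% of all genes in that fit. Fabp3, a fatty acid binding protein, was 1.4-fold lower (adjusted p = 0.00847) but below the 95th percentile of the negative controls on every array. The transporter Slc27a4 was 1.31-fold lower (adjusted p = 0.0098). Plin2, which coats lipid droplets, read 6.52, 6.67 and 6.52 in controls and 8.06, 7.57 and 7.71 after lidocaine. Every lidocaine rat was far above the controls, a 2.31-fold rise (adjusted p = 0.000794).

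Of the 21 storage and release genes, 3 rose, 1 fell and 17 did not pass, so that 14.3% rose, against 9.7% of all genes, and 4.76% fell, against 14%. Besides Plin2, the acyltransferase Agpat2 was 1.37-fold higher (adjusted p = 0.02), no longer past the threshold (adjusted p 0.0537 to 0.0743) when leaving out control rat 2 or 3 or lidocaine rat 2 or 3. G0s2, an inhibitor of the main triglyceride lipase, was 1.43-fold higher with overlapping groups (adjusted p = 0.0461), no longer past the threshold (adjusted p 0.110 to 0.146) when leaving out control rat 2 or 3 or lidocaine rat 1 or 2 and with arrays centred on their median (0.0521). The lipase-like gene Pnpla3 was 1.27-fold lower (adjusted p = 0.0147). Microglia and macrophage markers rose in the same rats as Cd36 and Plin2, and their part in these rises was not tested.

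Of 27 measured genes of fatty acid oxidation, the opposing pathway, 7 fell and 20 did not pass, which is 25.9%, against 14% of all genes. With dim genes left out of the fit, 10 of the 16 that remained fell, against 37.1% of all genes in that fit. The lowest was Abcd2, a peroxisomal transporter of very long chain fatty acids, at 7.33, 7.38 and 7.30 in controls and 6.48, 6.49 and 6.12 after lidocaine, 1.97-fold lower (adjusted p = 0.000994). Abcd3, a related peroxisomal transporter, was 1.42-fold lower (adjusted p = 0.00442), and Echs1, the mitochondrial enoyl-CoA hydratase, was 1.29-fold lower (adjusted p = 0.0094). Among 14 other ceramide and sphingomyelin genes 2 fell and 12 did not pass, with a median difference of 0.019, and their share of 14.3% was near the 14% of all genes. Sptssb, a small subunit of serine palmitoyltransferase and below the 95th percentile of the negative controls on every array, read 5.15, 5.14 and 5.06 against 4.47, 4.34 and 4.13, 1.75-fold lower (adjusted p = 0.00141). Sgms1, a sphingomyelin synthase also below that percentile on every array, was 1.2-fold lower (adjusted p = 0.0405). This call ended (adjusted p 0.0552 to 0.128) with any 1 rat other than lidocaine rat 3 left out, and also with the replicate number as a block (0.0723).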

How the data were processed

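Gene expression was measured on Affymetrix arrays from 150 ng of total RNA of the lumbar cord, 1 rat per array, per the labels' protocols. The deposited values are log2 summaries per transcript cluster made by the authors with RMA, per the submitters' processing notes, which equalises probe distributions across arrays, so each value is relative to its array. The array model, software version and genome build were not stated in the sources used here. Of 63789 transcript clusters, the platform annotation gave 21560 a single gene and 471 several genes. Those with several genes were not used. The brightest cluster per gene was kept, which left 20530 genes. Symbols were updated through RefSeq identifiers (20304 found, 1 changed).

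Groups, taken from the sample titles, entered a linear model in limma 3.58.1 under R 4.3.3, with empirical Bayes variances and Benjamini-Hochberg adjustment over all genes. Adjusted p-values are limma's. Intervals are 95% intervals of that fit. The steps were tested on simulated arrays. The number of arrays limits precision. Alternatives covered array scaling, a gene's several rows, dim genes, the prior, array weights, a replicate block and leaving out each rat. All 36 genes are named by step; of each other list the genes with the smallest p are named, up to 4. Members, lists and motifs were chosen with earlier results of these data known. Marker sums add 2 to the power of each log2 value.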

Additional observations from a re-analysis of the deposited data

How the results depend on the processing

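Of the 20 lipid synthesis genes that passed, 11 kept their direction and their side of the threshold under every alternative run: Acly, Acss2, Fasn, Scd, Elovl1, Elovl6, Elovl7, Hacd3, Acsl1, Acsl3 and Acsl6. The other 9 lost the call in at least 1 setting. Of the 11 that did not pass, 6 passed in at least 1 setting. The number that fell was 18 and ran from 15 to 20 with other scalings, array weights, trend and robust fits or all rows of a gene. Leaving out 1 rat gave 11 to 17. The number that rose was 2, and it was 1 with arrays centred on their median, 1 with dim genes left out, 1 with the replicate block and 0 to 3 without 1 rat, where 2 to 3 were higher at an unadjusted p under 0.05 by limma. Over all genes, 4867 passed, 2875 lower and 1992 higher. With dim genes left out 4996 genes were tested, and 2556 passed, 1854 lower and 702 higher. Without 1 rat 2754 to 4335 passed, 1342 to 2423 lower and 1299 to 1912 higher, the fewest without control rat 2 for calls in all (2754) and lower calls (1342) and without control rat 3 for higher calls (1299), and without control rat 3 2906 passed in all and 1607 were lower. Signs turned for Cers5 with quantile normalization (0.017) and for Ugcg with quantile normalization (0.019) and without lidocaine rat 3 (0.023; the range of Ugcg without 1 rat was -0.1374 to 0.023), and the cause was not tested. Rats with the same number did not deviate together (correlations of deviations -0.0633, -0.238 and 0.142 for numbers 1, 2 and 3). With 3 rats per group these values cannot show whether the numbers pair the rats. With the replicate number as a block 4005 genes passed, 2268 lower and 1737 higher, 15 of them lipid synthesis genes that fell and 1 that rose.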

Other observations

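Genes that break sphingolipids down changed in both directions. Of 18 measured, 6 fell, 2 rose and 10 did not pass (limma, adjusted p under 0.05, n = 3 rats per group), with a median difference of -0.040. The share that fell was 33.3%, against 14% of all genes, and the share that rose was 11.1%, near the 9.7% of all genes. With dim genes left out of the fit, 5 of the 12 that remained fell, against 37.1% of all genes in that fit. Sgpp2, a sphingosine phosphate phosphatase, was 1.65-fold lower (adjusted p = 0.00737) and the neutral ceramidase Asah2 1.6-fold lower (adjusted p = 0.00853). The glucosylceramidase Gba2 was 1.26-fold lower (adjusted p = 0.0134), no longer past the threshold (adjusted p 0.0527 to 0.0558) when leaving out control rat 2 or 3. The 2 that rose, named after their values were seen, were Galc and Sphk1. Galc, the lysosomal enzyme that degrades galactosylceramide of myelin, read 5.55, 5.70 and 5.52 in controls and 6.15, 5.92 and 6.47 after lidocaine, 1.5-fold higher (adjusted p = 0.017), no longer past the threshold (adjusted p 0.0510 to 0.0639) when leaving out control rat 1 or 3. Sphk1, which makes sphingosine phosphate, was 1.32-fold higher but dim (adjusted p = 0.0436). Its call did not hold (adjusted p 0.0798 to 0.134) when leaving out control rat 2 or 3 or lidocaine rat 1 or 2. Nor did it hold with arrays centred on their median (0.0505), with quantile normalization (0.0562) or with the replicate number as a block (0.065).

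Of 5 measured ganglioside synthesis genes 2 fell, 1 rose and 2 did not pass, so that 40% fell, against 14% of all genes, and 20% rose, against 9.7%. With dim genes left out of the fit, 0 of the 3 that remained fell and 1 rose, against 37.1% and 14.1% of all genes in that fit. B4galt5, which makes lactosylceramide, was 1.31-fold higher (adjusted p = 0.0126), no longer past the threshold (adjusted p = 0.0528) when leaving out control rat 3. B4galnt1, which starts complex gangliosides, was 1.34-fold lower (adjusted p = 0.0137). St8sia1 was 1.24-fold lower (adjusted p = 0.0409), a call that ended (adjusted p 0.0820 to 0.113) with any 1 rat other than lidocaine rat 2 left out. The same was so with quantile normalization (0.0695) and with the replicate number as a block (0.0647).

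Control rat 2 and lidocaine rat 3 each had the highest value of their group for 7 of the 31 lipid synthesis genes, namely Fads1, Fads2, Elovl6, Elovl7, Cers2, Cers5 and Degs1, which is 22.6%, against 14.1% of all genes. All 7 measured Schwann cell and root myelin markers had that order. Their summed level was 3773 in control rat 2 and 3649 in lidocaine rat 3, against 2704 to 3147 in the other 4 rats. The pattern was noticed in the values and has no test.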
